A study of Mus musculus with 11 samples.

Results

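A stretch of mouse chromosome 4, chr4:111976189-113976180 in the mm10 genome build, holds 9 genes of the Skint family, and its DNA depth was followed through 11 low-coverage sequencing libraries of mouse embryonic stem cells (mESC). The members were the 40 bins of about 50 kb, of 52958 in the deposited tables, whose midpoint lies in the stretch, called the interval here, and the genes were Skint7, Skint1, Skint4, Skint3, Skint9, Skint2, Skint10, Skint6 and Skint5 in their order along the chromosome. The interval was selected on measured values, namely its low depth in the Dnmt TKO library, so every comparison of that library with the others is a description without a test. The 9 Skint genes were the only protein-coding genes of the GENCODE annotation that overlap the interval. Of the 11 Skint genes annotated in all, Skint8 lies just before it and Skint11 just after it. Another 9 pseudogenes, 4 of them unprocessed, and 3 other non-coding genes were annotated in the interval.

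Skint stands for selection and upkeep of intraepithelial T cells. The family encodes membrane proteins with immunoglobulin-like domains that are related to the butyrophilins, and its best known member, Skint1, is needed in the thymus for the development of the γδ T cells that populate the mouse epidermis (dendritic epidermal T cells). The genes lie next to each other as copies of one ancestral gene and are known from thymus and skin. Only DNA was measured here, so nothing below concerns their expression, and the label of the cells could not be checked against marker genes.

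The study asked how loss of TET enzymes, which oxidise 5-methylcytosine, affects the chromosomes of mESC. Ctrl cells carried Cre/ERT2, a Cre recombinase switched on by tamoxifen and driven by the ubiquitin C promoter, and Rosa26-LSL-H2b-Egfp, a green reporter that Cre switches on. Tet iTKO cells carried the same alleles and floxed alleles (fl/fl) of Tet1, Tet2 and Tet3. For both genotypes there was 1 library before treatment (not activated), 1 after acute treatment with tamoxifen (1 µM for 2.5 days and 4 days of further culture) and 3 from monoclonal populations kept for 30 days after tamoxifen (long-term). Dnmt TKO cells, germline (not inducible) knockouts of Dnmt1, Dnmt3a and Dnmt3b whose label names no other allele and no tamoxifen, gave 1 long-term library. Every culture was kept in 2i conditions over feeder fibroblasts, and live CD326+ Thy1.2- cells were sorted. The protocol adds GFP+ for Ctrl and Tet iTKO without naming a stage, and how the libraries before treatment, when Cre had not been activated, were sorted is not given in the sources used here. The Ctrl and Tet iTKO mice were on a B6 background, as is the C57BL/6J reference genome. The strain background of the Dnmt TKO line is not given in the sources used here. With 1 library of it, differences that come with the line, its strain or its genotype cannot be told apart.

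The libraries held 555 to 812 megabases of mapped sequence, which at 50 bases per read is 215 to 315 reads in a typical autosomal bin of 50 kb. Relative depth is the depth of a bin, gene or interval divided by the median autosomal bin depth of the same library. If all reads map equally well, 1 stands for the usual 2 copies and 0.5 for 1 copy in every cell. Depth counts mapped reads only, and whether reads of every line map equally well to the reference was not tested. A low depth below is therefore not a count of copies. In bulk DNA, fewer copies in all cells and no copy in some of the cells cannot be told apart either. The Y chromosome had a relative depth of 0.027 to 0.038 in the 4 pre-treatment and acute libraries and of 0.457 to 0.558 in the 7 long-term libraries. Stage and cell line thus cannot be told apart between them. Among the long-term libraries, Y depth was 0.463 to 0.470 in Ctrl, 0.549 to 0.558 in Tet iTKO and 0.457 in Dnmt TKO. Genotype and cell line can therefore not be told apart among the long-term libraries either. The X chromosome was at 0.560 to 0.569 in the pre-treatment and acute libraries and at 0.568 to 0.592 in the long-term ones.

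The promoter windows of 5 members show how alike and how distinct these gene copies are, and they serve as anchors for the depths given further on. Each runs from 250 bases before to 50 bases after a start site and is taken from RefSeq (GRCm38.p6, the assembly that mm10 is a copy of). All 11 Skint genes had a window, and capitals mark runs of at least 15 bases that also occur in the window of another Skint gene on either strand. Skint3 (chr4:112231995-112232294, plus strand) is shown as the member with the lowest depth, Skint9 (chr4:112433936-112434235, minus strand) and Skint10 (chr4:112774812-112775111, minus strand) as close relatives with unlike depths, and Skint6 (chr4:113286924-113287223, minus strand) and Skint5 (chr4:113999454-113999753, minus strand) as the pair with the most alike windows.
Skint3: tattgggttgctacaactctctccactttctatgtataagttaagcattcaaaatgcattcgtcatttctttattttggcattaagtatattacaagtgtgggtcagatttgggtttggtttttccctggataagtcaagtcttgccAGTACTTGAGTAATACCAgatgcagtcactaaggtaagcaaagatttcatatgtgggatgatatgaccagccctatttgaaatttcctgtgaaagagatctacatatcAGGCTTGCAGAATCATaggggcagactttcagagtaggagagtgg
Skint9: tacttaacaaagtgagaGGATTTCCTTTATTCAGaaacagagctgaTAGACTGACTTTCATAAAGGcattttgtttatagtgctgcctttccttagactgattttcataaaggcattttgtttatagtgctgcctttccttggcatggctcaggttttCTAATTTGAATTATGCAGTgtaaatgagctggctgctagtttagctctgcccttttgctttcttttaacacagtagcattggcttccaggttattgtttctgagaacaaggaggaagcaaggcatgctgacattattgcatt
Skint10: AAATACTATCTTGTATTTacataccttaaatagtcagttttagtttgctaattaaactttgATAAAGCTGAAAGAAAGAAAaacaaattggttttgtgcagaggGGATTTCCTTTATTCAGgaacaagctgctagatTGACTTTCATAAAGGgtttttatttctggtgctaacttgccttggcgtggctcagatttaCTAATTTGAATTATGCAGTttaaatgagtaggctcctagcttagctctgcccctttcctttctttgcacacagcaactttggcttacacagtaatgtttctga
Skint6: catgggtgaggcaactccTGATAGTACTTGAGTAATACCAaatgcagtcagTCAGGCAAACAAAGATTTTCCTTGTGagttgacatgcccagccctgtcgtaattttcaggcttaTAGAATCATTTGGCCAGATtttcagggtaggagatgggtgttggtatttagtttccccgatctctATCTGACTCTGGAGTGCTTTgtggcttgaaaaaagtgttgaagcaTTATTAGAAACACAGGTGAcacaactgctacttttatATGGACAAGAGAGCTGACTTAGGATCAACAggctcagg
Skint5: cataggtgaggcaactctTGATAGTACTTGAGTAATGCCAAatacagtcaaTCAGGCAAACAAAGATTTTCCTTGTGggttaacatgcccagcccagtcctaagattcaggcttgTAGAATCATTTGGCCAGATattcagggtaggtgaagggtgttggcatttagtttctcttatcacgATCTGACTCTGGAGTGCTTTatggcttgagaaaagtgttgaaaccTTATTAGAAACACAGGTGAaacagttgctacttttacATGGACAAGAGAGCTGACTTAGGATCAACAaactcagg

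Skint6 and Skint5 were identical at 269 of 300 aligned promoter bases (89.7%), and their longest shared run was 30 bases. Skint9 and Skint10 were identical at 138 of 168 aligned bases (82.1%), with a longest shared run of 19 bases. Over all 55 pairs of windows, only Skint8 and Skint7 shared a run longer than a read, of 51 bases. None of the 50-mers of the 5 windows shown occurred a second time in the genome. The longest coding sequence of each gene was aligned in the same way. Skint7 and Skint8 were identical at 90.2% of 1198 aligned bases, Skint9 and Skint10 at 86.0% of 958, and Skint3 and Skint2 at 84.9% of 1014. Skint10 and Skint11 were identical at 82.0% of 973 aligned bases, and Skint9 and Skint11 at 80.3% of 972. By contrast, Skint1 and Skint9 aligned over 127 bases. Coding runs of 50 or more shared bases were found in 3 pairs, Skint8 and Skint7 (237 bases), Skint6 and Skint5 (98 bases) and Skint3 and Skint2 (68 bases).

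In Dnmt TKO cells, the interval had less than the usual depth over most of its length, and the reduction differed between Skint genes. The relative depth of the whole interval was 0.469 in the Dnmt TKO library. It was 0.998, 0.990 and 0.982 in the 3 long-term Ctrl libraries, a mean of 0.990 ± 0.0085 (SD, n = 3). In the 3 long-term Tet iTKO libraries it was 0.974, 0.983 and 0.973, a mean of 0.977 ± 0.0055 (SD, n = 3). Thus, the Dnmt TKO value lay below every other library, at 0.474 of the Ctrl level (log2 ratio -1.08) and 0.480 of the Tet iTKO level (log2 ratio -1.06). The 80 bins within 2 Mb on either side had a relative depth of 0.956 in Dnmt TKO and of 0.942 to 0.968 in the other 10 libraries.

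**Figure D1:**
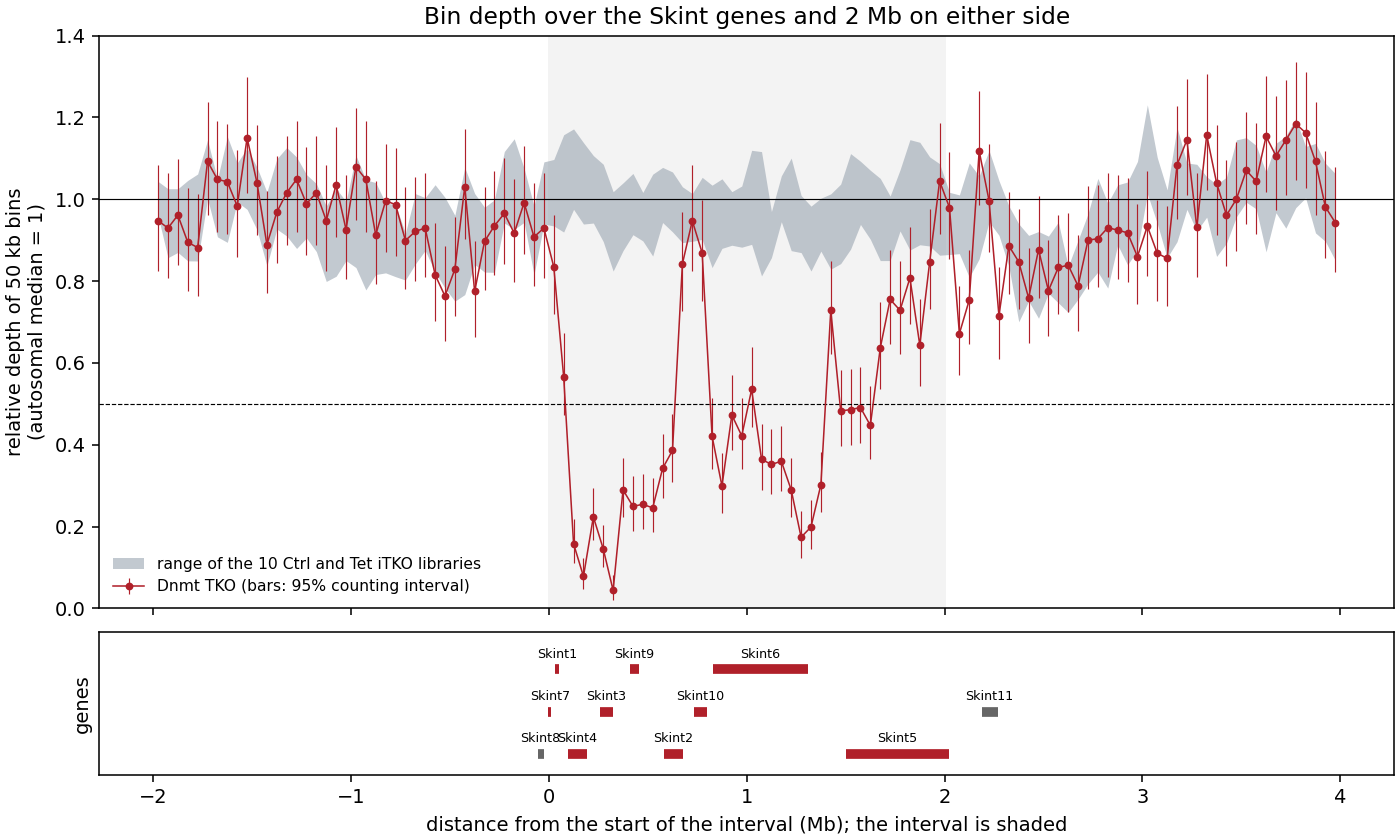
Relative depth of each 50 kb bin (y axis, autosomal median = 1) against the distance from the start of the interval in Mb (x axis), with the Skint genes as bars below (red, in the interval; grey, Skint8 and Skint11). Red points are the Dnmt TKO library with 95% counting intervals and the grey band is the range of the 10 Ctrl and Tet iTKO libraries. The red points fall to 0.044 in the left part, return to 0.84 to 0.95 around Skint10 and rise again towards the right end.

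At a log2 ratio of -0.5 or lower against long-term Ctrl, 30 of the 40 interval bins (75%) were low, compared with 0.83% of all 47707 autosomal bins that passed the filter on depth. Against long-term Tet iTKO, 30 bins were low as well, compared with 0.811% of all bins. All 40 bins passed the filter, and since the interval was selected on this contrast, nothing follows from these shares. Of the 80 bins on either side, 1 was low. The depth of Dnmt TKO was below 0.5 in 26 bins and below 0.25 in 9 bins, and in 38 of 40 bins it was below all 10 other libraries. The shares of all autosomal bins that meet these conditions were not computed, so nothing follows from these counts either. No bin of those 10 libraries was below 0.812 or above 1.17. The low bin nearest to the threshold of -0.5 had a log2 ratio of -0.67 (relative depth 0.636, chr4:113626182-113676181), and the nearest bin on the other side had one of -0.49 (relative depth 0.728, chr4:113726182-113776181).

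The low bins formed 3 stretches of consecutive bins and 1 single bin. The left stretch covered 600 kb (12 bins, chr4:112026188-112626185) with a mean relative depth of 0.248 and holds Skint4, Skint3, Skint9 and most of Skint2. Its left edge was graded, with 0.835 in the bin before it, 0.566 in its first bin and 0.158 in the next. Its right edge was steep, from 0.386 in its last bin to 0.842 in the bin after it. The lowest bin of the interval lies in this stretch, over the 3′ part of Skint3 (chr4:112276188-112326186). It held 10 reads in Dnmt TKO, a relative depth of 0.044 (95% Poisson interval 0.021 to 0.081), compared with 0.973 ± 0.017 (SD, n = 3) in the long-term Ctrl libraries and 0.957 ± 0.033 (SD, n = 3) in the Tet iTKO ones.

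Between the left and the middle stretch, 3 bins over the 3′ end of Skint2 and over Skint10 had relative depths of 0.842, 0.947 and 0.869 in Dnmt TKO. The middle stretch was as long (600 kb, 12 bins, chr4:112776186-113376182), had a mean relative depth of 0.349 and holds all of Skint6. From the bin before it, at 0.869, the depth fell to 0.421 in its first bin, and from 0.302 in its last bin it rose to 0.728 in the next. The right stretch covered 250 kb (5 bins, chr4:113426183-113676181) with a mean of 0.508 over the 3′ part of Skint5. The 6 bins to its right had depths of 0.755, 0.728, 0.807, 0.643, 0.847 and 1.04 in their order along the chromosome, of which the fourth was low. The last bin was thus no lower than in the other libraries. Over all autosomes, 50 stretches of 2 or more low bins were found, and the left and the middle Skint stretch shared rank 5 by number of bins with 1 other of the same length.

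The 9 members fell into 3 kinds by position in Dnmt TKO. Skint4, Skint3, Skint9 and Skint6 lay wholly in low bins. Skint2, Skint5 and Skint1 lay partly in low bins (72.6%, 47.6% and 14.4% of the gene length), and Skint7 and Skint10 had no part in one. In order of depth, they ran from Skint3 over Skint4, Skint9, Skint6, Skint2, Skint5, Skint1 and Skint7 to Skint10. The 95% counting intervals, which are approximate for genes, overlapped between neighbours in this order for 4 of 8 pairs. These were Skint3 and Skint4, Skint5 and Skint1, Skint1 and Skint7, and Skint7 and Skint10. Some neighbours share a bin, so that their values are not independent, as for Skint7 and Skint1, Skint1 and Skint4, and Skint7 and Skint8.

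**Figure D2:**
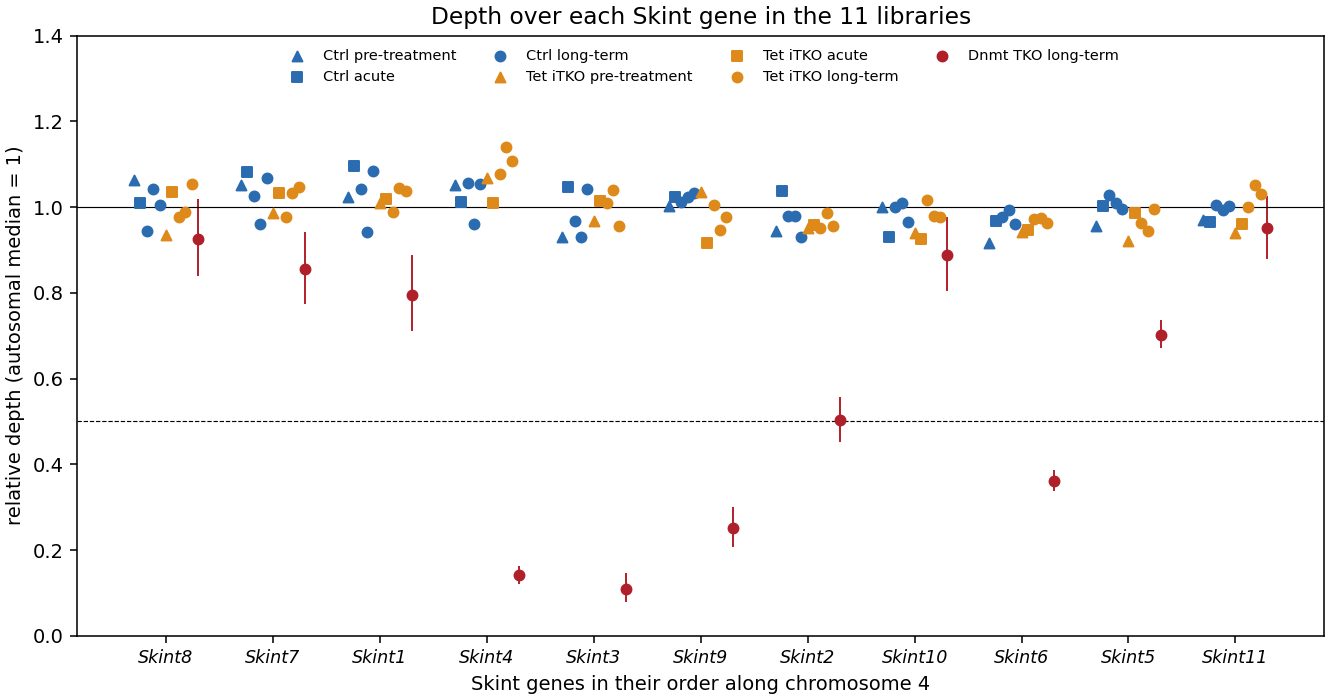
Relative depth (y axis, autosomal median = 1) over each Skint gene in its order along chromosome 4 (x axis) in the 11 libraries, with symbols for stage and colours for genotype. Bars on the Dnmt TKO points are approximate 95% counting intervals. The 10 Ctrl and Tet iTKO libraries lie between 0.916 and 1.14 over the 9 members, and the Dnmt TKO point is below them for all 9, from 0.109 for Skint3 to 0.887 for Skint10.

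Skint3 (68.2 kb) had the lowest depth in Dnmt TKO, 0.109 (95% interval 0.079 to 0.147). Its relative depth was 0.967, 0.930 and 1.04 in long-term Ctrl and 1.01, 1.04 and 0.955 in long-term Tet iTKO. The log2 ratio of Dnmt TKO was -3.16 against Ctrl and -3.20 against Tet iTKO. The 11 libraries thus fell apart into Dnmt TKO and the rest, whose values overlapped among the groups.

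Skint4 (96.1 kb), its neighbour and relative, was at 0.141 (0.121 to 0.163) in Dnmt TKO. In long-term Ctrl it was at 1.06, 0.961 and 1.05, and in long-term Tet iTKO at 1.08, 1.14 and 1.11. The log2 ratio was -2.86 against Ctrl. Over Skint9 (48.0 kb), the depth was 0.250 (0.207 to 0.3004) in Dnmt TKO, 1.01, 1.02 and 1.03 in long-term Ctrl, and 1.01, 0.947 and 0.977 in long-term Tet iTKO, with a log2 ratio of -2.03 against Ctrl. All these genes lie in the left stretch, and none of the other libraries came near the Dnmt TKO values.

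Skint6 (482 kb), which has the longest coding sequence of the family after Skint5, was at 0.362 (0.339 to 0.387) in Dnmt TKO. It was at 0.977, 0.994 and 0.959 in long-term Ctrl and at 0.972, 0.975 and 0.962 in long-term Tet iTKO, and the log2 ratio was -1.43 against Ctrl. Its 11 bins were uneven in Dnmt TKO and ranged from 0.174 to 0.535. Skint5 (522 kb), its longer relative, was at 0.702 (0.670 to 0.735) in Dnmt TKO, at 1.03, 1.01 and 0.996 in long-term Ctrl and at 0.962, 0.944 and 0.995 in long-term Tet iTKO. The log2 ratio of Skint5 was -0.53 against Ctrl and -0.46 against Tet iTKO, on either side of the threshold. Its bins ran from 0.447 at the 3′ side to 1.04, so a single value does not describe this gene.

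Skint2 (95.1 kb) lay across the right edge of the left stretch and was at 0.502 (0.452 to 0.557) in Dnmt TKO. It was at 0.980, 0.979 and 0.929 in long-term Ctrl and at 0.950, 0.987 and 0.957 in long-term Tet iTKO. The value of 0.502 is a mean of unlike bins, from 0.342 to 0.842, and not a level found along the gene. The log2 ratio was -0.94 against Ctrl, and it was -1.33 where only the bin with the largest overlap was used.

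Skint1, the member with the known role in thymic selection of epidermal γδ T cells, kept most of its depth in Dnmt TKO. It was at 0.796 (0.711 to 0.888), compared with 1.04, 0.942 and 1.08 in long-term Ctrl and 0.988, 1.04 and 1.04 in long-term Tet iTKO. Skint7 (15.3 kb), the shortest member, was at 0.855 (0.773 to 0.943), compared with 1.03, 0.961 and 1.07 in long-term Ctrl and 0.977, 1.03 and 1.05 in long-term Tet iTKO. Skint10 (63.7 kb) was at 0.887 (0.804 to 0.977), compared with 1.00, 1.01 and 0.966 in long-term Ctrl and 1.02, 0.978 and 0.978 in long-term Tet iTKO. The log2 ratios against Ctrl were -0.36, -0.25 and -0.16. These Dnmt TKO values were below all 10 other libraries, by small margins for Skint7 and Skint10, whose lowest values elsewhere were 0.961 and 0.925. How many of all genes were lowest in Dnmt TKO was not computed.

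In sum, 6 of 9 members were at or below a log2 ratio of -0.5 against long-term Ctrl, compared with 1.17% of 20667 protein-coding genes, and the median log2 ratio was -0.94 for the members and 0.00019 for all these genes. Neither Skint gene outside the interval was low by this threshold. Skint8 was at 0.925 in Dnmt TKO, just below the range of the other 10 libraries (0.934 to 1.06), and Skint11 was at 0.950, within their range (0.938 to 1.05). The single low bin outside the interval lay between Skint5 and Skint11, at 0.671 (chr4:114026181-114076180). The next protein-coding genes were Slc5a9, a sugar transporter gene, at 0.910 in Dnmt TKO and 0.820 to 0.985 elsewhere, and Trabd2b at 0.824 and 0.769 to 0.864.

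Close relatives in the family had like depths in Dnmt TKO in one case and unlike depths in others. The pair with the highest coding identity, Skint8 and Skint7, was at 0.925 and 0.855, and these genes share 1 bin. Skint9 (0.250), Skint10 (0.887) and Skint11 (0.950) are the closest relatives of each other by coding sequence. The bins that hold the start sites of Skint6 and Skint5, whose promoter windows are printed above, had depths of 0.199 (0.145 to 0.266) and 0.979 (0.855 to 1.12). The 3 long-term Ctrl libraries had 0.924 ± 0.064 and 0.972 ± 0.028 in these bins (mean ± SD). The start site of Skint3 lay in a bin at 0.145, that of Skint9 in one at 0.254 and that of Skint10 in one at 0.869. The start sites of Skint7 and Skint5 lie outside the interval.

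Related butyrophilin and B7-like genes elsewhere in the genome were looked at in the same way. None of 10 genes (Btn1a1, Btn2a2, Btnl1, Btnl2, Btnl4, Btnl6, Btnl9, Btnl10, Mog and Ermap) was at or below -0.5, compared with 1.17% of 20667 protein-coding genes. With so small a share over all genes, nothing about these relatives follows from this count. Their log2 ratios of Dnmt TKO against Ctrl ranged from -0.29 for Btnl10 to 0.10 for Btnl1 and Btnl2, which share 1 bin, with a median of 0.0092. Btn1a1, the milk fat butyrophilin, was at 1.16 in Dnmt TKO and a mean of 1.102 (SD 0.032) over the 3 long-term Ctrl libraries. The 5 genes outside the region whose values over the 11 libraries were most like the median of the members were C87414, Defa20, Vmn1r115, Defa30 and Gm5891. Their root mean square difference on the log2 scale was 0.081 to 0.095, among 20623 genes compared, and their Dnmt TKO depths were 0.542, 0.518, 0.553, 0.470 and 0.475.

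Sequence content of the bins was compared with the depth. In the median interval bin, 15.2% of all 50-mers occurred more than once in the genome, compared with 9.92% in the bins on either side and 5.87% in the other bins of chromosome 4. The GC content was lower than elsewhere, with a median of 37.4% compared with 41.3% on the rest of chromosome 4. Over the 40 bins, the depth of Dnmt TKO did not follow the share of repeated 50-mers (Pearson's r = 0.071, Spearman's rho = 0.11). Within the left stretch the bins with fewer repeated 50-mers had the lower depth (r = 0.69, rho = 0.71, 12 bins), and likewise within the middle stretch (r = 0.71, rho = 0.69, 12 bins). The right stretch went the other way (r = -0.90, rho = -0.70, 5 bins). Over the same bins, long-term Ctrl gave r = -0.044, 0.45 and -0.033. The bins share 1 library and adjoin each other, so these correlations are descriptions. The 2 lowest bins, at 0.044 and 0.078, also had the lowest shares of repeated 50-mers of the left stretch, 4.02% and 5.62%. The part of repeated sequence in the remaining depth was not tested.

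**Figure D3:**
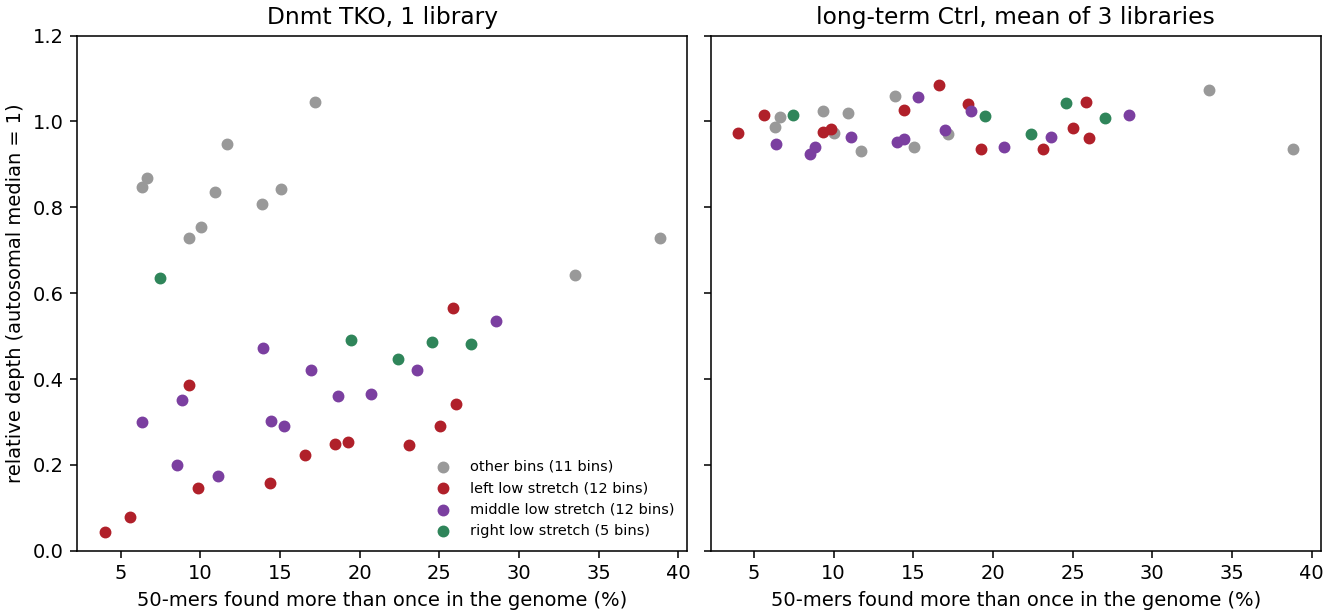
Relative depth of the 40 interval bins (y axis, autosomal median = 1) against the percentage of their 50-mers found more than once in the genome (x axis), in Dnmt TKO (left) and as the mean of 3 long-term Ctrl libraries (right). Points are bins, coloured by low stretch. In the left panel the red and purple points rise from left to right, and in the right panel all points stay near 1.

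The choice of the interval had not used the contrast between long-term Tet iTKO and Ctrl libraries. The 9 Skint genes differed by at most 0.12 on the log2 scale there, with mixed signs. The whole interval differed by a log2 difference of -0.019 (exact permutation test, two-sided, p = 0.2). For 3 libraries against 3, the smallest exact p is 0.1. The long-term genotypes also differed in Y depth as given above, so genotype and cell line cannot be told apart in this contrast. The ratio of Tet iTKO to Ctrl was 0.987, and the groups overlapped, since Tet iTKO replicate 2 (0.983) was above Ctrl replicate 3 (0.982). The groups no longer overlapped when depth was scaled to the mean autosomal bin or when Ctrl replicate 3 was left out (exact permutation p = 0.1 for both), and with GC correction the exact permutation p was 0.5.

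**Figure D4:**
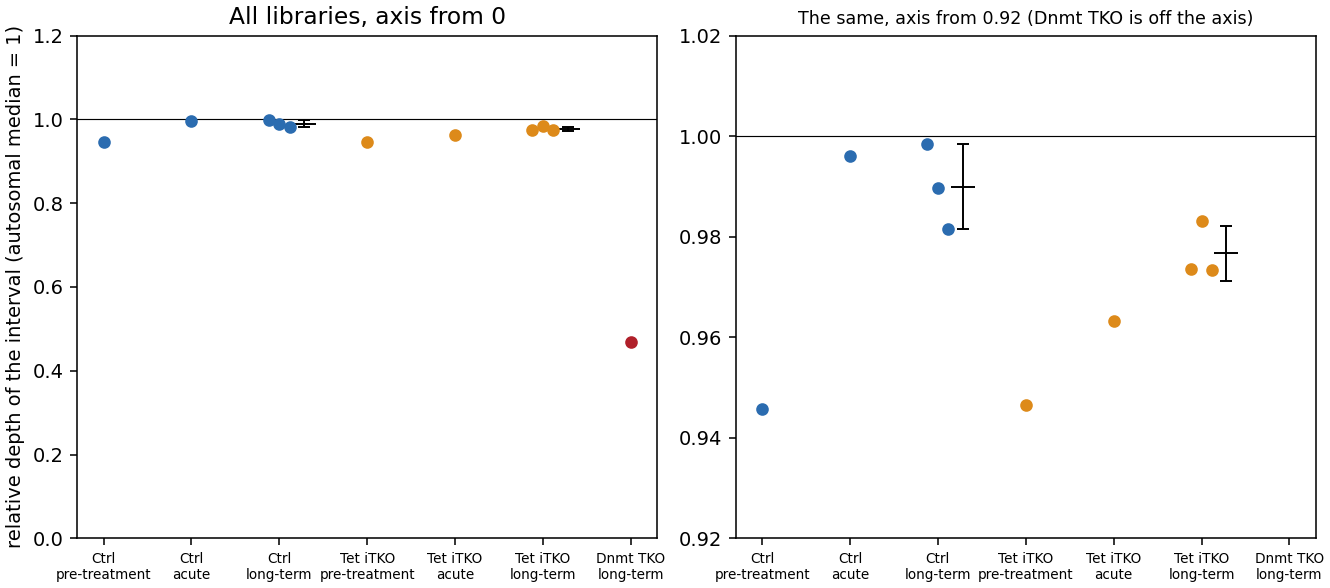
Relative depth of the whole interval (y axis, autosomal median = 1) by group (x axis), with 1 point per library and bars for the mean ± SD where a group has 3 libraries. The left panel starts at 0 and shows Dnmt TKO at 0.469; the right panel shows 0.92 to 1.02, where Ctrl and Tet iTKO overlap and both pre-treatment libraries are lowest, at 0.946 and 0.947.

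Among the 9 members, 5 had a higher mean in Tet iTKO and the median log2 difference was 0.00010. The groups did not overlap for 3 of 9 members, compared with 12.2% of 20667 protein-coding genes. With GC correction or with the largest-overlap bin alone there were 2 such members, and without Ctrl replicate 3 there were 4. The shares of all genes were not computed for these settings, and smaller groups separate more easily. Nothing follows from these counts. Skint4 was higher in Tet iTKO by 0.12 on the log2 scale, the largest difference of the 9. Skint9 differed by -0.067 and Skint5 by -0.064. For these 3 genes the exact permutation p was 0.1, the smallest possible, without adjustment over the genes, and with GC correction that of Skint5 was 0.3. The other 6 members had overlapping groups and exact permutation p values of 0.6 to 1.

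Bin by bin, limma called none of the 40 interval bins at an adjusted p under 0.05, compared with 0.109% of all bins. At an unadjusted p under 0.05 there were 4 of 40 bins in the interval and 2886 of 47707 among all autosomal bins, and the smallest adjusted p in the interval was 0.644. The groups did not overlap in 6 of 40 bins (15%), compared with 11.3% of all bins, with 1 higher and 5 lower in Tet iTKO. The log2 differences of the bins ranged from -0.21 to 0.15. In data simulated at the same depth with counting noise alone and 200 changed bins, all 63 bins changed by 0.5 on the log2 scale were recovered. Of 68 bins changed by 0.3, 55.9% were recovered. The real libraries had a chi-square of up to 1.15 per degree of freedom, above counting noise, so recovery in them can be lower. Smaller changes than these may not have been detectable at this depth.

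Along the stages of culture, the interval as a whole was slightly higher after treatment than before it in both genotypes, while its genes had mixed signs. Before treatment the interval was at 0.946 in Ctrl and 0.947 in Tet iTKO, and after acute treatment at 0.996 and 0.963. The long-term libraries were above the pre-treatment library by 0.066 in Ctrl (0.054 to 0.078 over 3 libraries) and by 0.045 in Tet iTKO (0.040 to 0.055) on the log2 scale. After GC correction these differences were 0.022 and 0.013. With 1 library before treatment there was no test, and early and long-term libraries differed in Y depth as given above. After acute treatment, 7 of 9 members were higher than before it in Ctrl and 6 of 9 in Tet iTKO. The long-term mean was higher than the pre-treatment library for 5 of 9 members in Ctrl, with Skint4, Skint1, Skint7 and Skint10 lower. In Tet iTKO it was higher for 8 of 9, with Skint9 lower. These gene values were not GC corrected and the shares of all genes were not computed, so nothing follows from these counts. Among the long genes, Skint6 went from 0.916 before treatment to 0.968 after acute treatment in Ctrl, and Skint5 from 0.956 to 1.00. In Tet iTKO, Skint6 was at 0.942 and 0.946, and Skint5 at 0.922 and 0.987. In the other direction, Skint10 was at 1.00 and then 0.930 in Ctrl and at 0.941 and then 0.925 in Tet iTKO. Skint4 was at 1.05 and then 1.01 in Ctrl and at 1.07 and then 1.01 in Tet iTKO. No member was below 0.916 in any Ctrl or Tet iTKO library of any stage.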

How the data were processed

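DNA of 11 bulk mESC samples in 7 groups, taken from the sample labels, was compared by depth. Per the methods, single-end reads were trimmed by the authors and aligned to mm10 (BWA-mem), and Picard was used against optical duplicates. BSMAP 2.74v also stands in the submitters' processing notes; the methods give it for bisulfite data. The deposited tables hold mean read coverage (depth, a signal not scaled or corrected) for bins of about 50 kb and its log2, as deposited by the authors (largest deviation 4.05e-05). Base sums under 400 were multiples of 50 in 95.1% of 3200 values, hence 50 bases per read, although the methods name a longer minimum.

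Relative depth was the depth over the median autosomal bin depth. Gene values were means over the overlapping bins, weighted by overlap with the GENCODE M21 gene. The filter kept autosomal bins of at least 25 kb with a mean relative depth of 0.5 to 1.5 in the 6 long-term Ctrl and Tet iTKO libraries. Ratios of bins used a pseudocount of 0.01. Long-term groups were compared with exact permutation tests and, over all bins, with limma's moderated test (version 3.58.1 under R 4.3.3, on log2(relative depth + 0.01), Benjamini-Hochberg). Whether the 3 long-term libraries of a genotype are separate clones is not given in the sources used here, so p-values measure the spread between these libraries. Counting intervals of bins are exact 95% Poisson intervals and cover counting error only. For genes, the interval of all reads in the overlapping bins was scaled to the gene value, so it is approximate and can be too narrow. Of the 183 reads used for Skint4, 129 lay in the bin of its start site, at the edge of the gene. The 6 long-term pairs within a genotype had a chi-square of 1.01 to 1.15 per degree of freedom, where counting noise alone gives about 1. This check cannot tell separate cultures from repeat libraries of the same DNA, and the libraries were counted as separate because their labels and totals differ. In the simulation, 200 of 47707 bins were changed for Tet iTKO against Ctrl. Repeated 50-mers were counted on both strands of GRCm38 chromosomes, and sequences were aligned locally with Biopython 1.88 (coding sequences from GENCODE and the genome).

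Named genes were all Skint genes, the 2 nearest protein-coding genes on each side, a list of 10 butyrophilin and B7-like relatives, and the 5 genes most like the members over the 11 libraries. Members and lists were chosen with earlier results of these data known. Alternatives covered GC correction (lowess, span 0.3), scale, summary, threshold, window size, the settings of limma, a block for the replicate number and the removal of single libraries. Replicate numbers do not pair the samples: deviations of same-numbered samples correlated at 0.0010, -0.0050 and 0.0019. Tables were made with pandas 2.3.3 and numpy 2.4.6 (Python 3.11.15), tests with scipy 1.17.1, the lowess fit with statsmodels 0.14.6 and plots with matplotlib 3.10.9.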

Additional observations from a re-analysis of the deposited data

Results flagged for a closer look

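Skint9 differed in opposite directions in the 2 genotypes between the pre-treatment and the long-term libraries, and this was not tested. In Ctrl, the 3 long-term libraries (1.01, 1.02 and 1.03) lay above the pre-treatment library (1.00), by 0.029 on the log2 scale (0.015 to 0.044). In Tet iTKO, the 3 long-term libraries (1.01, 0.947 and 0.977) lay below the pre-treatment library (1.04), by -0.086 (-0.13 to -0.043). After acute treatment, Skint9 was at 1.02 in Ctrl and 0.917 in Tet iTKO. Each stage but the long-term one had 1 library per genotype. The noise of a single bin was 0.091 to 0.11 on the log2 scale over the libraries, and Skint9 spans 2 bins. Both shifts were smaller in size than this single-bin noise. They are shifts of 2-bin values with a mean over 3 long-term libraries, for which no noise was computed, so the comparison decides nothing. The pre-treatment and long-term libraries also differed in Y depth, so the same cells may not have been followed. No other member of the 9, nor the interval as a whole, differed in opposite directions in every library of both genotypes.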

How the results depend on the processing

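The log2 ratio of Dnmt TKO against long-term Ctrl for the interval (-1.08) was -1.09 with the mean autosomal depth as the scale and -1.23 as the median over the bins; GC correction and scaling to the rest of chromosome 4 moved it by less than the SD of the Ctrl libraries. Against long-term Tet iTKO (-1.06) it was -1.07 with GC correction, -1.07 with the mean autosomal scale and -1.21 as the median over the bins. Leaving out 1 Ctrl library gave -1.08 to -1.07, and 1 Tet iTKO library -1.06 to -1.05. The number of low bins was 31 at a threshold of -0.4, 28 at -0.8 and 30 to 31 without 1 Ctrl library. In windows of 100 kb, 17 of 20 (85%) were low. Of the 9 members, 6 were low with the largest-overlap bin alone and with GC correction. The shares over all autosomal bins, windows or genes were not computed for these settings. Since the interval was selected on this contrast, nothing follows from these counts. The rise of the interval from pre-treatment to long-term fell with GC correction to 0.022 in Ctrl and 0.013 in Tet iTKO, the only setting that moved it beyond the SD of the long-term libraries. 

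The interval difference of long-term Tet iTKO minus Ctrl (-0.019) stayed negative in every setting, from -0.0072 with GC correction to -0.026 without Ctrl replicate 3. Its exact permutation p was 0.1 with the mean autosomal scale and without Ctrl replicate 3, and 0.2 to 0.5 in the other settings. With the replicate block, as the mean of paired differences, the interval difference was -0.019 (exact sign-flip p = 0.25, the smallest that 3 pairs can give). Replicate numbers do not pair the samples, as given above, so nothing follows from this sign-flip p. The block with limma called 0 interval bins, as every other limma setting did. Over all bins limma called 52, which became 98 without Tet iTKO replicate 3, and 13 of 4769 windows of 500 kb. The members whose groups did not overlap numbered 3 of 9, compared with 12.2% of 20667 protein-coding genes. There were 2 after GC correction (Skint5 lost, exact permutation p = 0.3), 2 with the largest-overlap bin alone and 3 to 4 without 1 library. The shares of all genes were not computed for these settings, so nothing follows from these counts. The small gene differences changed sign more easily. With the largest-overlap bin alone, they were -0.0010 for Skint7 and Skint1, -0.029 for Skint2, 0.038 for Skint6 and 0.039 for Skint5, whose groups had not overlapped before. With GC correction, they were 0.013 for Skint10 and 0.0027 for Skint6. Leaving out 1 library at a time turned the sign of 6 members, with ranges of -0.041 to 0.035 for Skint7, -0.056 to 0.046 for Skint1, -0.0037 to 0.077 for Skint3, -0.022 to 0.016 for Skint2, -0.019 to 0.012 for Skint10 and -0.023 to 0.0022 for Skint6. Skint4 and Skint9 kept their sign in all these settings. The cause of these changes was not tested. Depth limits single bins to about 215 to 315 reads, and 50 kb bins do not resolve breakpoints or exons.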
